A study of Mus musculus with 7 samples.

Results

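The genes described here are 30 genes of lymphoid priming and of the early B and T lineages, taken by name from a read count table of 28786 genes in haematopoietic stem cells (HSCs) of mouse bone marrow. The list spans cytokine, Notch and chemokine receptors, the V(D)J recombination genes, transcription factors shared by lymphoid cells, and B and T lineage genes. All 30 were found in the table, and 29 passed the filter on low counts and were tested. Rag2 did not pass it. The MC38 group was 4 libraries of HSCs from C57BL/6J mice with MC38 colon cancer, after a mouse colon carcinoma cell line, and the control group was 3 libraries of HSCs from normal mice, of which 2 were used. Mice of both groups were 6 to 8 weeks old, each library was made from 1500 sorted cells with 12 cycles of PCR. The labels used here give neither the sort markers, nor the site and stage of the tumours, nor how many animals stand behind a library, so p-values measure the spread between libraries, which may be technical.

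HSCs give rise to lymphoid cells through multipotent progenitors that begin to transcribe lymphoid genes at low level before they commit, which is called lymphoid priming. Ikaros family factors and E proteins open this programme, interleukin 7 signalling and EBF1 and PAX5 carry B cell commitment in the marrow, and Notch1, TCF7 and GATA3 carry T cell commitment in the thymus. RAG1 and RAG2 cut antigen receptor genes and terminal transferase, the product of Dntt, adds bases at the joins. Bulk libraries cannot tell fewer cells of a type apart from less RNA per cell.

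Promoter windows are shown for the called receptor genes for which RefSeq gave one, Ccr9 and Il2rg, for Dntt, the gene with the lowest fold change, and for Igll1 and Vpreb1, neighbours on chromosome 16 whose products form the surrogate light chain. Each window is 300 bases on the gene's own strand, from 250 before to 50 after the start, from RefSeq on GRCm38.p6, the assembly of the mm10 build of the counts. Windows were found for 22 of the 30 genes. Ccr7, Cd7, Cd79b, Ikzf2, Ikzf3, Il12rb1, Ly6d and Mn1 had none. Capitals mark matches on either strand to an Ikaros core (TGGGAA), an EBF core (CCCNNGGG), the E-boxes CAGCTG and CAGGTG, the interferon and STAT element GAS (TTCNNNGAA) and a Runx core (TGTGGT).
Ccr9, chr9:123766961-123767260, plus strand: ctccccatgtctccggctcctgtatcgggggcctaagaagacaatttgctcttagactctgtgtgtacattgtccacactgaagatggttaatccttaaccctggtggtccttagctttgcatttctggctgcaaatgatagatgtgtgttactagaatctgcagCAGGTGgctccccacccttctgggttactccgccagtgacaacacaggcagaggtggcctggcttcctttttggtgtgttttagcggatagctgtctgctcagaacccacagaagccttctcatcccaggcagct
Il2rg, chrX:101268206-101268505, minus strand: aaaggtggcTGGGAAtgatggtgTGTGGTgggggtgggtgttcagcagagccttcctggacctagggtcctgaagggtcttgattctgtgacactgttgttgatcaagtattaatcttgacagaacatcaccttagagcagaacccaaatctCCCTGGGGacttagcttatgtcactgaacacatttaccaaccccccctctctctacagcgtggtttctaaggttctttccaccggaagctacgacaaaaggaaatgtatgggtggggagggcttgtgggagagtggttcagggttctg
Dntt, chr19:41029025-41029324, plus strand: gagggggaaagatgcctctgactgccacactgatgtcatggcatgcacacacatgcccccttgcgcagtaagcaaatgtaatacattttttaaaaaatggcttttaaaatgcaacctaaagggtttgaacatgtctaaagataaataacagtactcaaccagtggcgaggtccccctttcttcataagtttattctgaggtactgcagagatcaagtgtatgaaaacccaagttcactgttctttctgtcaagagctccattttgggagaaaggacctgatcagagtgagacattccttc
Igll1, chr16:16863936-16864235, minus strand: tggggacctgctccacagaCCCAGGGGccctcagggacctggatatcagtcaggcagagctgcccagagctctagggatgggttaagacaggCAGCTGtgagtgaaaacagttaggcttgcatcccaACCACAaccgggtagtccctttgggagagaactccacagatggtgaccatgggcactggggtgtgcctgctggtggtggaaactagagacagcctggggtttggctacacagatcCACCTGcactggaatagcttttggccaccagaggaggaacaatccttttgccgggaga
Vpreb1, chr16:16869206-16869505, minus strand: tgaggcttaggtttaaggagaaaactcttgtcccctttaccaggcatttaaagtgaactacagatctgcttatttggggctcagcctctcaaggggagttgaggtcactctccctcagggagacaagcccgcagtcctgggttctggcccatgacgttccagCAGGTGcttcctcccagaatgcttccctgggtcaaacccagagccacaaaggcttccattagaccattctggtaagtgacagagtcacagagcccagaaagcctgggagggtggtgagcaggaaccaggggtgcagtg

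Igll1 carried an EBF core, both E-boxes and a Runx core, while Vpreb1 and Ccr9 carried the CAGGTG E-box alone. Il2rg carried Ikaros, EBF and Runx cores, and Dntt none of these letters. Among the 33 windows of the gene set, the CAGGTG E-box was present in 12, against 20.2% of all 32851 promoter windows, and the Ikaros core in 10, against 25.6%. The EBF core was present in 3 (13.7% of all), the CAGCTG E-box in 6 (16.3%), GAS in 4 (8.3%) and the Runx core in 7 (16.8%). Several windows belong to the same gene and overlap, and a match describes letters, not a bound site.

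The lymphoid genes lay mostly above their control level in MC38, but few differences passed the test. In edgeR's quasi-likelihood test over 14226 genes, with Benjamini-Hochberg adjustment at 0.05, 3 of the 29 tested genes rose, against 1.04% of all genes, and all 3 were receptors: Ccr7, Ccr9 and Il2rg. None fell, against 0.569% of all genes, and none fell with DESeq2, with limma-voom or at an unadjusted p under 0.05 in edgeR, where 8.22% of all genes did. At an unadjusted p under 0.05, 12 of the 29 were higher (9.26% of all genes). The fitted log2 fold change was above 0 for 25 of them (50.9% of all genes), and its median was 0.48, against 0.01 over all genes. Every MC38 library was above both controls for 13 genes (14.0% of all) and below both for 1, Dntt (15.0% of all). The count of 3 rested on few libraries: it was 0 without control library 2, MC38 library 2 or MC38 library 4, 1 without control library 1, and 5 without MC38 library 1 or MC38 library 3. DESeq2 and edgeR without the low-count filter each called 8 genes of the set, and limma-voom called 1, Il2rg.

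**Figure D1:**
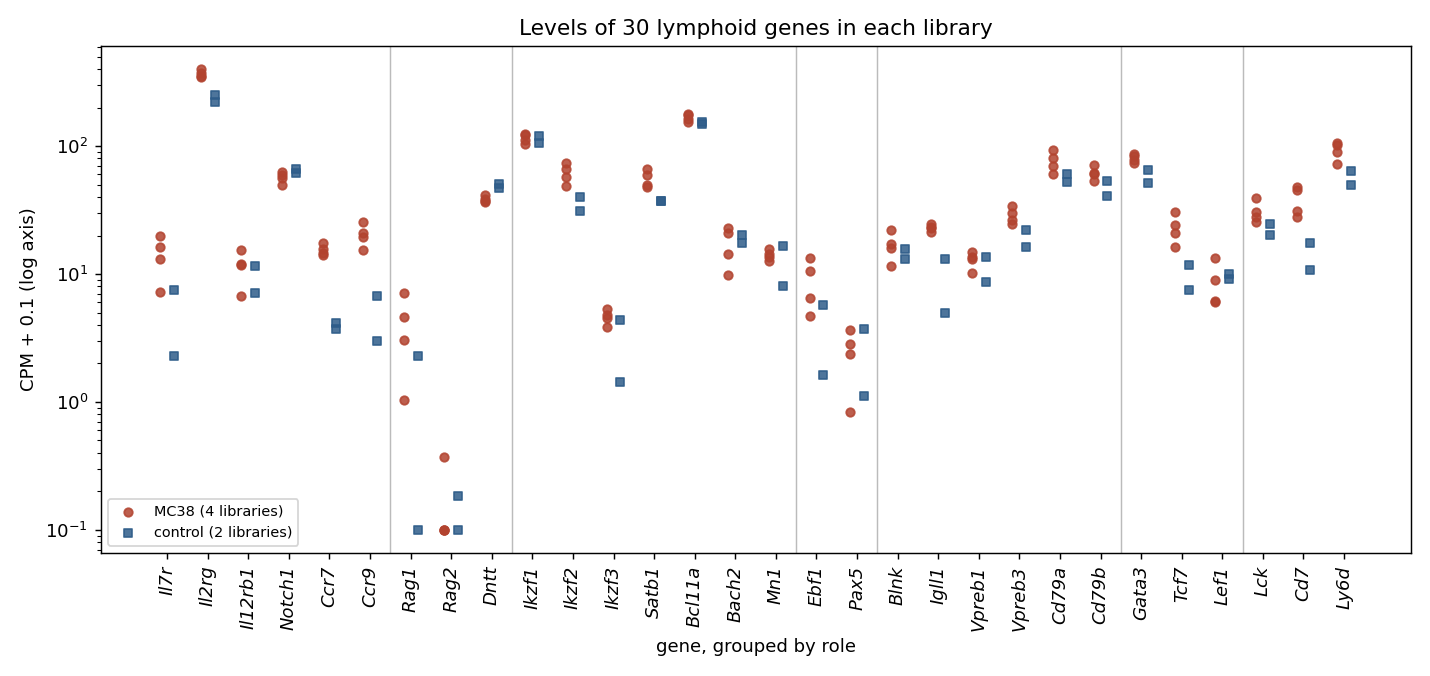
CPM of each of the 30 genes in each library, with 0.1 added on a log axis, in 4 MC38 libraries (circles) and 2 control libraries (squares), with grey lines between the role groups. Il2rg lies highest, Rag2 lies at the bottom, and the circles of Ccr7, Ccr9, Igll1, Tcf7 and Cd7 lie clear above their squares.

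**Figure D2:**
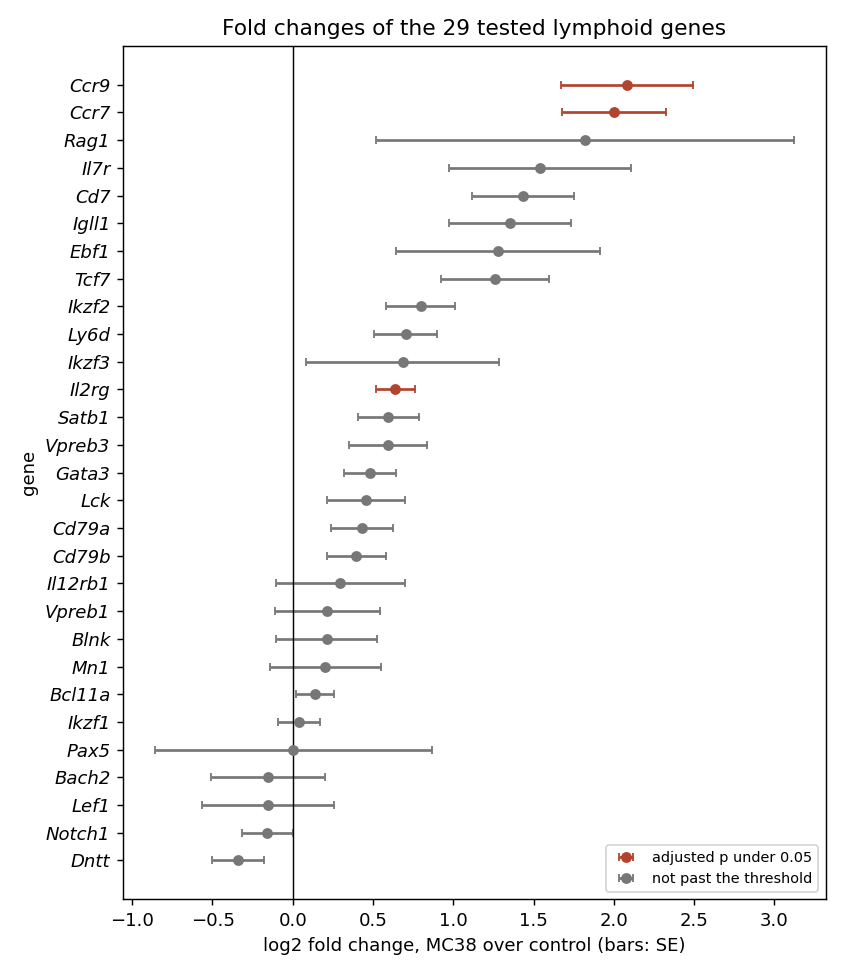
Log2 fold change of MC38 over control with its SE for the 29 tested genes, ordered by value. The 3 genes past the threshold are in red, and 25 of the 29 points lie above 0.

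Levels per length, as CPM per kilobase of annotated exon, spanned a wide range. Il2rg was highest at 154 ± 10.2 in MC38 and 99.2 ± 9.26 in control libraries (SD, n = 4 and 2, as in all values below given as mean ± SD). Ly6d followed with 125 ± 20.9 in MC38 and 76.5 ± 13.6 in control libraries. Cd79a, Cd79b, Cd7, Vpreb3, Gata3 and Ikzf1 came next, with MC38 means between 20.1 and 52.2 CPM per kilobase. Rag1, Ikzf3, Pax5 and Rag2 were lowest, with MC38 means of 0.585, 0.518, 0.262 and 0.0196. Surface and signalling genes of B cells thus stood above the B lineage factors Ebf1 (0.888 in MC38, 0.365 in control) and Pax5 (0.262 in both groups). Exon lengths are unions over isoforms, which lowers the per-length value of genes with long rare exons.

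The receptors held the clearest differences. Ccr7, the chemokine receptor that guides lymphocytes and dendritic cells to lymph nodes (ENSMUSG00000037944, chromosome 11: 99144196 to 99155077), had 13.9, 15.5, 17.5 and 14.5 CPM in the MC38 libraries, against 4.03 and 3.63 CPM in the controls. The groups were far apart and narrow, and the underlying reads were 196 to 315 counts in MC38 and 48 and 44 in control libraries. Its log2 fold change was 2.00 (SE 0.32, edgeR adjusted p = 0.0166), and over 13 alternatives the adjusted p ran from 1.133e-06 to 0.119. Ccr9, the receptor for CCL25 that guides progenitors to the thymus and cells to the gut (ENSMUSG00000029530, chromosome 9: 123678439 to 123784330), had 15.2, 20.9, 25.4 and 19.2 CPM in MC38, against 6.64 and 2.89 CPM in the controls. The lowest MC38 library was above the higher control, and the controls differed from each other more than in Ccr7. Its log2 fold change was 2.08 (SE 0.41, edgeR adjusted p = 0.0405, with a range of 2.707e-05 to 0.138 over the alternatives). Il2rg, the common cytokine receptor chain used by the interleukin 2, 7 and 15 receptors among others (ENSMUSG00000031304, chromosome X: 101264378 to 101268255), had 349, 375, 400 and 350 CPM in MC38, against 252 and 221 CPM in the controls. It was the most abundant gene of the set in every library and the groups did not overlap. Its log2 fold change was 0.64 (SE 0.12, edgeR adjusted p = 0.0333, with a range of 7.48e-05 to 0.163). The calls of all 3 were lost without control library 1 (edgeR adjusted p = 0.119 for Ccr7, 0.0756 for Ccr9 and 0.161 for Il2rg), control library 2 (0.0999, 0.138 and 0.163), MC38 library 2 (0.0729, 0.115 and 0.119) and MC38 library 4 (0.0651, 0.113 and 0.0914), while the fold changes moved little except for Ccr9, at 2.80 without control library 1 and 1.60 without control library 2.

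Of the other receptors, Il7r, the specific chain of the interleukin 7 receptor (chromosome 15: 9505788 to 9530176), had 7.20, 12.9, 16.0 and 19.8 CPM in MC38, against 2.18 and 7.43 CPM in the controls. The lowest MC38 library lay just under the higher control, and both groups were wide. Its log2 fold change was 1.54 (SE 0.57) and did not pass (edgeR adjusted p = 0.206), with 0.91 without control library 1 and 2.68 without control library 2. Notch1, the receptor that starts the T cell programme, was at 56.8 ± 5.69 CPM in MC38 and 63.5 ± 3.50 CPM in control libraries (edgeR adjusted p = 0.663). Il12rb1, a chain of the interleukin 12 and 23 receptors, was at 11.3 ± 3.51 CPM in MC38 and 9.22 ± 3.06 CPM in control libraries (edgeR adjusted p = 0.76). Groups overlapped for Il7r, Notch1 and Il12rb1.

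Of the recombination genes, Rag1 and Dntt did not pass and Rag2 was near the limit of detection. Rag1 had 14, 43, 127 and 61 counts in MC38, against 26 and 0 counts in the controls, so the fitted log2 fold change of 1.82 (SE 1.30, adjusted p = 0.521 in edgeR) turned on which control was used and was 0.83 without control library 2, while without control library 1 the remaining control was at 0 and no fold is given. Rag2 had 4, 0, 0 and 0 counts in MC38, against 1 and 0 counts in the controls. At this depth 3 counts over all libraries of a group correspond to 0.0492 CPM in MC38 and 0.125 CPM in control libraries. Dntt (chromosome 19: 41029275 to 41059525) had 38.7, 36.9, 41.5 and 36.5 CPM in MC38, against 50.8 and 46.6 CPM in the controls. All 4 MC38 libraries were below both controls, the only gene of the set with that order, but the log2 fold change of -0.34 (SE 0.16) did not pass (edgeR adjusted p = 0.313).

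Among the shared transcription factors 0 of 7 passed in edgeR. At an unadjusted p under 0.05 in edgeR, 2 of the 7 were higher (9.26% of all genes) and 0 lower (8.22% of all genes). DESeq2 called Ikzf2. Ikzf2, which encodes the Ikaros family member Helios, had 48.5, 57.4, 74.1 and 66.1 CPM in MC38, against 30.9 and 40.0 CPM in the controls (log2 fold change 0.80, SE 0.22, edgeR adjusted p = 0.101). Satb1, a chromatin organiser of lymphoid cells, had 48.0, 49.9, 66.7 and 59.7 CPM in MC38, against 37.2 and 37.0 CPM in the controls (log2 fold change 0.60, SE 0.19, edgeR adjusted p = 0.15). For both genes the groups did not overlap. Ikzf1, which encodes Ikaros itself, was at 116 ± 9.56 CPM in MC38 and 113 ± 9.07 CPM in control libraries, a fitted log2 difference of 0.04 (SE 0.13). Bcl11a, a factor needed for lymphoid development, was at 167 ± 11.7 CPM in MC38 and 152 ± 3.75 CPM in control libraries (SE of its log2 fold change of 0.14, 0.12). Both Ikzf1 and Bcl11a overlapped between groups. Ikzf3 (Aiolos), Bach2, a repressor of myeloid genes in lymphoid cells, and Mn1, a transcriptional co-activator first known from leukaemia, had log2 fold changes of 0.69, -0.15 and 0.20 with SEs of 0.60, 0.35 and 0.34, and adjusted p-values between 0.613 and 0.876 (edgeR). Without control libraries 1 and 2 the log2 fold change of Ikzf3 was 0.08 and 1.75.

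The B lineage genes did not pass in edgeR, though the fitted value of all 8 was above 0, by 0.003 only for Pax5. DESeq2 called 1 of the 8, Igll1 (adjusted p = 0.0103). Ebf1, the factor that specifies B cells, had 4.57, 10.5, 13.2 and 6.36 CPM in MC38, against 1.51 and 5.61 CPM in the controls, and the groups overlapped (log2 fold change 1.28, SE 0.63, edgeR adjusted p = 0.335). Without control libraries 1 and 2 its log2 fold change was 0.63 and 2.52. Pax5, which maintains B cell identity, had 0.740, 2.26, 3.56 and 2.74 CPM in MC38, against 1.01 and 3.63 CPM in the controls, a spread that covers any difference. Igll1, the lambda-5 chain of the surrogate light chain (chromosome 16: 16860671 to 16863985), had 24.5, 23.0, 23.3 and 21.1 CPM in MC38, against 13.1 and 4.87 CPM in the controls. The MC38 libraries were close together and above both controls, which differed widely (log2 fold change 1.35, SE 0.38, edgeR adjusted p = 0.111). Its log2 fold change was 2.24 without control library 1, where it passed (edgeR adjusted p = 0.0499), and 0.81 without control library 2. Its partner Vpreb1 (chromosome 16: 16868403 to 16870843), with its promoter shown above beside that of Igll1, had 12.98, 14.63, 10.02 and 13.54 CPM in MC38, against 8.57 and 13.45 CPM in the controls, and the groups overlapped (log2 fold change 0.22, SE 0.33), with -0.07 and 0.58 without control libraries 1 and 2. The difference between Igll1 and Vpreb1 was not tested. Vpreb3 and Cd79b, a pre-B cell receptor assembly protein and a signalling chain of the B cell receptor, were higher in every MC38 library than in the controls, at 28.7 ± 4.18 CPM in MC38 and 19.1 ± 4.07 CPM in control libraries for Vpreb3, and at 61.7 ± 7.04 CPM in MC38 and 46.9 ± 8.78 CPM in control libraries for Cd79b. Cd79a, the other signalling chain, was at 76.0 ± 14.1 CPM in MC38 and 56.4 ± 5.59 CPM in control libraries, and Blnk, the adaptor downstream of it, at 16.6 ± 4.24 CPM in MC38 and 14.4 ± 1.88 CPM in control libraries; both overlapped. The adjusted p of Vpreb3, Cd79b, Cd79a, Blnk and Vpreb1 ran from 0.247 to 0.793 (edgeR).

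The 5 T lineage genes and Ly6d did not pass in edgeR either. Every MC38 library was above both controls for 4 of the 5 T lineage genes and for Ly6d, against 14.0% of all genes. Cd7, a surface protein of T and NK cells and their progenitors (ENSMUSG00000025163, chromosome 11: 121036747 to 121039418), had 48.1, 45.2, 27.9 and 30.9 CPM in MC38, against 17.4 and 10.7 CPM in the controls. Its log2 fold change was 1.44 (SE 0.32, edgeR adjusted p = 0.0573), close to the threshold. DESeq2 called it (adjusted p = 0.000442). Over 13 alternatives Cd7 passed in 6, among them the fit with all 7 columns, whose control column 3 is not independent. Without MC38 library 2 it did not pass (edgeR adjusted p = 0.1535). Tcf7, the TCF-1 factor of T cell specification, had 30.3, 23.9, 16.3 and 20.8 CPM in MC38, against 11.6 and 7.43 CPM in the controls, and DESeq2 called it (adjusted p = 0.00867; log2 fold change 1.26, SE 0.34, edgeR adjusted p = 0.0994). Ly6d, a surface antigen that marks B-biased lymphoid progenitors in mouse marrow, had 107, 102, 72.0 and 90.1 CPM in MC38, against 64.1 and 49.8 CPM in the controls, and DESeq2 called it too (adjusted p = 0.0155; log2 fold change 0.70, SE 0.20, edgeR adjusted p = 0.11). Gata3, a T cell factor also transcribed in HSCs, was at 80.6 ± 5.95 CPM in MC38 and 57.8 ± 9.73 CPM in control libraries (edgeR adjusted p = 0.17). Lck, the kinase of the T cell receptor, was at 30.6 ± 6.23 CPM in MC38 and 22.3 ± 3.16 CPM in control libraries (edgeR adjusted p = 0.372). Lef1, the relative of Tcf7, was the exception, at 8.49 ± 3.38 CPM in MC38 and 9.46 ± 0.65 CPM in control libraries (edgeR adjusted p = 0.891).

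**Figure D3:**
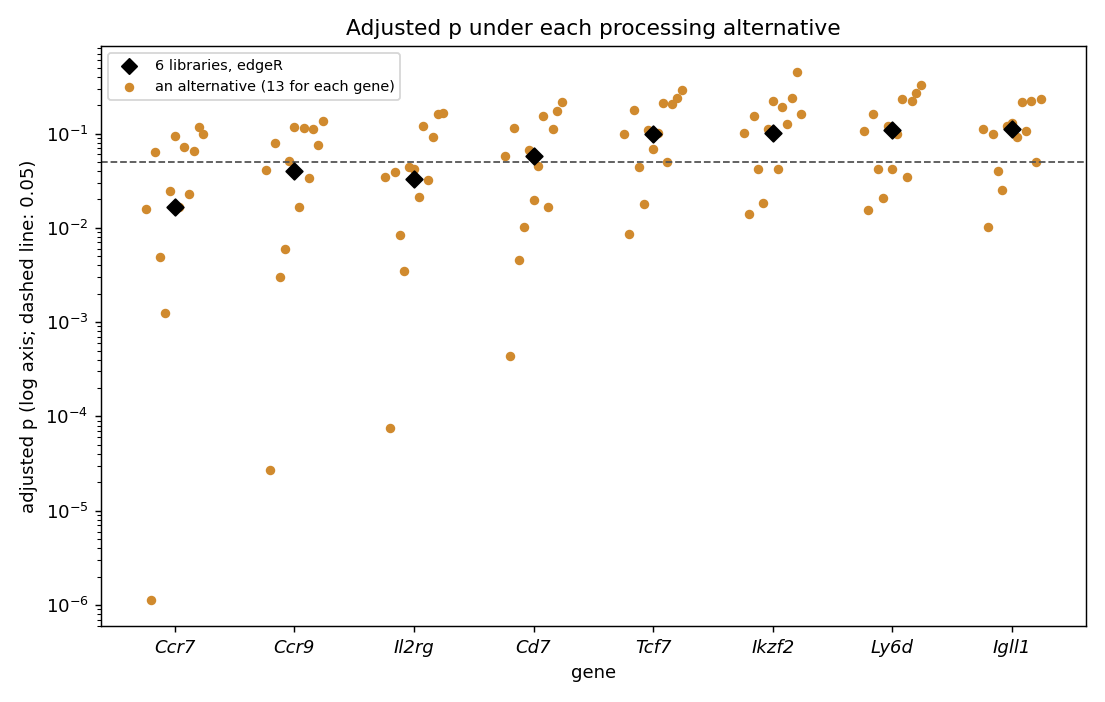
Adjusted p of 8 genes on a log axis in the 6-library edgeR fit (diamonds) and under 13 processing alternatives each (dots), with the threshold of 0.05 dashed. For each gene the dots fall on both sides of the line, and for Ccr7, Ccr9 and Il2rg the diamond lies under it.

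The genes of the set did not share an order among the MC38 libraries. For 9 genes MC38 library 3 was highest and library 1 lowest (Ccr7, Ccr9, Ebf1, Ikzf1, Ikzf2, Il2rg, Pax5, Rag1 and Satb1), an order found in 22.2% of all tested genes. For 8 genes the order was the opposite (Bach2, Blnk, Cd7, Cd79a, Cd79b, Il12rb1, Ly6d and Tcf7), as in 23% of all tested genes. In this paragraph, values over all tested genes cover only those with an annotated exon length. The 9 genes had a median exon length of 8853 bases and the 8 of 2041 bases, against 4723 and 3644 bases for all tested genes with those orders. MC38 library 3 had the most counts (17657037) with 16047 genes detected, and library 1 had 14964782 counts with 16388 genes. The part of exon length and depth in this order was not tested. Across groups, the set's median log2 fold change was 0.62 for the 12 genes among the shortest exon lengths (up to 3043 bases), where all genes had -0.06. It was 0.48 for the 3 genes of 3043 to 5627 bases, where all genes had 0.02. For the 14 of over 5627 bases it was 0.21, where all genes had 0.06.

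**Figure D4:**
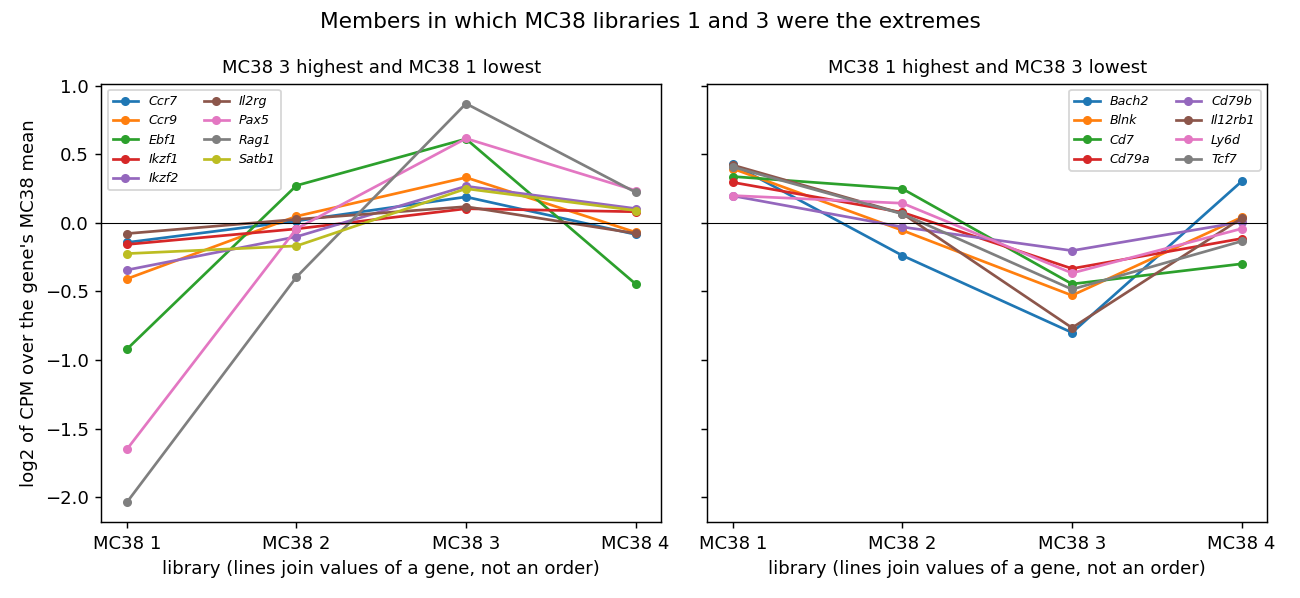
Log2 of the CPM in each MC38 library over the gene's MC38 mean, for the 9 genes highest in library 3 and lowest in library 1 (left) and the 8 of the opposite order (right). Rag1, Pax5 and Ebf1 spread most in the left panel, and Bach2 and Il12rb1 in the right one.

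Of the partners of these genes in the same pathways, few passed in edgeR. In each list the shares of all genes to set beside the counts at an unadjusted p under 0.05 are 9.26% higher and 8.22% lower, and the median of all genes is 0.01. In interleukin 7 receptor signalling 0 of 18 genes passed in edgeR, 3 were higher and 0 lower at an unadjusted p under 0.05, and the median log2 fold change was -0.03. Its smallest p-values were those of the feedback inhibitor Cish, with 83.5, 76.6, 74.2 and 79.8 CPM in MC38, against 45.4 and 51.0 CPM in the controls (edgeR adjusted p = 0.0516), and of Myc (edgeR adjusted p = 0.0726). In V(D)J recombination and end joining 0 of 14 passed (edgeR), with 1 higher and 1 lower unadjusted and a median of 0.03, led by Prkdc and Atm at log2 fold changes of 0.72 and -0.66. In the Notch pathway 0 of 20 passed (edgeR), with 1 higher and 2 lower unadjusted and a median of 0.33, led by Dtx1 and Mfng at 3.08 and -0.30. Of 32 E proteins and other lymphoid regulators 1 rose, Id2, an inhibitor of E proteins, with 170, 194, 242 and 187 CPM in MC38, against 87.1 and 110 CPM in the controls (log2 fold change 1.01, edgeR adjusted p = 0.0215). The relative Id1 had a log2 fold change of -0.85 (edgeR adjusted p = 0.0585). In this list 3 genes were higher and 1 lower unadjusted, and the median was 0.18. DESeq2 called Id2, Irf4 and Irf8 higher and Id1 lower, and limma-voom called Id2 alone. In pre-B cell receptor signalling 0 of 19 passed (edgeR), with 6 higher and 0 lower unadjusted, every MC38 library above both controls for 9 (14.0% of all genes) and a median of 0.35, led by Lyn at 0.54 and Ptprc at 0.56. In T cell receptor signalling 0 of 18 passed (edgeR), with 4 higher and 0 lower unadjusted, every MC38 library above both controls for 7 and a median of 0.56, led by Cd3g at 1.34 and Fyb at 0.39. Of 17 chemokine receptors and ligands tested beside Ccr7 and Ccr9, 1 rose (1.04% of all genes), with 4 higher and 1 lower unadjusted. It was the myeloid receptor Ccr1 (log2 fold change 1.81, edgeR adjusted p = 0.0305). Cxcl12, with the next smallest p, was at 1.26 (edgeR adjusted p = 0.122). DESeq2 called both higher, and limma-voom called 0 in this list. The fitted value was above 0 for 14 of the 17 (50.9% of all genes), with a median of 0.26. A list of chains and signalling partners of Il2rg, of Il12rb1 and of related receptors had 12 tested genes. Of these 0 passed (edgeR), with 1 higher and 0 lower unadjusted, led by Il13ra1 and Il15ra at 1.99 and 0.72. The fitted value was above 0 for 11 of the 12 (50.9% of all genes), with a median of 0.38. Where edgeR called 0, limma-voom called 0 as well. There DESeq2 called Cish and Myc (interleukin 7), Dtx1 (Notch, at 0 and 0.825 CPM in the controls) and 0 recombination genes. It also called Cd2, Lyn, Plcg2, Ptpn6 and Ptprc (pre-B cell receptor), Cd3g (T cell receptor) and Il13ra1 (related receptors). All of these were higher in MC38.

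Markers of other cells moved beside some of these genes. Of all genes, edgeR called 1.04% higher, and 9.26% were higher and 8.22% lower at an unadjusted p under 0.05. The 10 stem cell markers, among them Kit, Procr, Hlf and Mecom, summed to between 1517 and 1720 CPM in MC38 and between 1490 and 1723 CPM in control libraries. Of the 10, 0 passed (edgeR, 1 higher unadjusted), 6 had a fitted log2 fold change below 0 and the median was -0.04. Ccr9 also marks plasmacytoid dendritic cells, and the 7 other markers of that list summed to between 438 and 478 CPM in MC38 and between 328 and 365 CPM in control libraries. Of the 8 in all, 2 rose, Siglech and Ccr9, and Siglech had 69.5, 66.6, 74.0 and 65.2 CPM in MC38, against 34.3 and 24.5 CPM in the controls (edgeR adjusted p = 0.013). The 10 mature T cell markers summed to between 62.2 and 84.0 CPM in MC38 and between 27.1 and 47.9 CPM in control libraries. Of the 10, 0 passed (edgeR, 5 higher unadjusted), and the median log2 fold change was 0.87. The fitted value was above 0 for 9 (50.9% of all genes), and every MC38 library was above both controls for 5 (14.0% of all genes). Groups overlapped for the other 5, Cd3e among them, at 1.35 to 4.40 CPM in MC38 and at 3.11 and 1.90 CPM in control libraries. Cd3g and Cd3d did not overlap. Cd3g had 9.71 to 13.3 CPM in MC38, against 3.02 and 5.94 CPM in the controls. Cd3d had 10.9 to 17.3 CPM in MC38, against 7.73 and 7.76 CPM in the controls. Of 8 NK cell markers 0 passed (edgeR, 1 higher unadjusted), with sums between 370 and 420 CPM in MC38 and between 405 and 478 CPM in control libraries. The fitted value was below 0 for 4 of the 8, and the median log2 fold change was -0.07. Mature B cell markers, 7 of 8 found in the table, summed to between 533 and 641 CPM in MC38 and between 479 and 634 CPM in control libraries, and 0 of 7 passed (edgeR, 0 unadjusted). Plasma cell markers summed to between 474 and 687 CPM in MC38 and between 599 and 629 CPM in control libraries, with 0 of 7 past the threshold (edgeR, 0 unadjusted). Markers of multipotent lymphoid-primed progenitors such as Flt3 summed to between 865 and 1118 CPM in MC38 and between 766 and 794 CPM in control libraries, with 0 of 7 past the threshold (edgeR; 3 higher unadjusted). The neutrophil list showed the widest gap, with sums between 52248 and 59359 CPM in MC38 and between 27021 and 27308 CPM in control libraries, and 6 of 8 genes up, S100a8, S100a9, Ngp, Ltf, Retnlg and Mmp8. In lists with 0 calls in edgeR, genes of smallest p included Ly6a (stem cell, log2 fold change 0.65), Cd3g and Cd3d (T cell, 1.34 and 0.84), Klrb1c and Klre1 (NK cell, 1.67 and 2.66), Ptprc (progenitor, 0.56), Ms4a1 and Cr2 (B cell, 0.38 and 0.62) and Sdc1 and Xbp1 (plasma cell, 0.83 and 0.24). DESeq2 called Ly6a, Cd3g, Klrb1c and Ptprc of these, all higher in MC38, and limma-voom none. No marker of these lists was at 0 in all 6 libraries, and the part of other cells in the lymphoid values was not tested.

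The 6 libraries held between 12131546 and 17657037 counts. Control column 3 was left out because its values are not those of an independent library: its ratio to the sum of the other controls had a median of 0.353 with 95% of 9692 genes between 0.341 and 0.371, while the same ratio of MC38 library 1 to the sum of MC38 libraries 2 and 3 ran from 0.175 to 0.832. The strand setting of the counting is not stated, and some genes share exon bases with others. Il2rg shares 30.5% of its exon bases with the read-through gene Gm20489 on the same strand. On the opposite strand, Ccr9 shares 18.83% with AC165425.1, Lef1 13.75% with Gm43352, Cd7 10.77% with Gm11775 and Vpreb1 9.01% with Top3b. Of these partners, AC165425.1, Gm43352 and Gm11775 are not in the count table. Smaller overlaps of other genes are not listed. Reads in shared bases cannot be assigned with certainty.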

How the data were processed

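The authors deposited raw read counts per Ensembl gene for each library. The submitters' processing notes name mm10 as the build and HTSeq 0.10.0, STAR 2.6.1 and Trim Galore 0.5.0 as tools; annotation release and strand setting: not given in the sources used here. GENCODE M21 (GRCm38) named 27797 of 28786 gene IDs. MC38 (4 libraries) was compared with control (2) in edgeR 4.0.16 under R 4.3.3, with the filterByExpr filter, TMM scaling and robust quasi-likelihood tests adjusted by Benjamini-Hochberg over 14226 genes; the common biological coefficient of variation was 0.366. SEs are the log2 fold change over the root of its F statistic. CPM are counts scaled to the tested genes' library total after TMM. Alternatives were DESeq2 1.42.0, limma-voom (limma 3.58.1), other size factors, no filter, all 7 columns, no immunoglobulin genes, a replicate block and leaving out each library. The genes, lists, motifs and windows shown were chosen with earlier results of these data known. Named genes are the 30 of the set and, per list, those past the threshold or, where under 2 passed, the 2 of smallest p; Cd3e was added as a defining marker after its values were seen, and the single-gene results of some markers are not reported here. PCR copies were counted, so count floors cover counting error only.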

Additional observations from a re-analysis of the deposited data

How the results depend on the processing

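The number of lymphoid genes called higher in MC38 was 3 in the 6-library edgeR fit. It was 8 with DESeq2, 1 with limma-voom, 8 without the low-count filter, 10 with all 7 columns and 2 without immunoglobulin genes, which ended the Ccr9 call (adjusted p = 0.0513, edgeR), and between 0 and 5 when a library was left out. No alternative called any of them lower (range 0 to 0). The fit with all 7 columns counts control column 3, which is not independent, as a further library. Among all tested genes, 148 were higher in MC38. This count was 634 with DESeq2, 90 with limma-voom, 302 without the filter, 791 with 7 columns, 95 without immunoglobulin genes and between 44 and 259 when a library was left out. Against 81 lower genes, the counts were 394 with DESeq2, 202 without the filter, 663 with 7 columns, 36 without immunoglobulin genes and between 16 and 183 when a library was left out.

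With the replicate number as a block, on control and MC38 replicates 1 and 2, 3 lymphoid genes were higher (Il2rg, Cd7 and Ly6d) and 0 lower, and 132 and 59 genes of all tested. The labels do not say what the numbers stand for. The deviations of same-numbered libraries from their group means correlated at 0.0729 and -0.0521. With 2 controls the deviations of control 2 mirror those of control 1, so these values cannot decide whether same-numbered libraries were paired. Under the block the log2 fold change turned sign for Ikzf1 (-0.047), Pax5 (-0.56) and Lef1 (0.21). With a library left out it turned sign for Il12rb1 (range -0.007 to 0.68, lowest without control replicate 1), Ikzf1 (-0.040 to 0.13, likewise), Mn1 (-0.23 to 0.82, likewise), Vpreb1 (-0.074 to 0.58, likewise), Pax5 (-0.64 to 1.20, lowest without control replicate 1 and also below 0 at -0.29 and -0.074 without MC38 replicates 3 and 4) and Bach2 (-0.33 to 0.038, highest without MC38 replicate 3). None of these genes was called under any setting, and the cause was not tested. The other 22 tested genes kept their direction in all 13 alternatives. Rag2, with 5 counts summed over the 6 libraries, did not pass the low-count filter, and the cause of its low count was not tested.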
